A study of Mus musculus with 12 samples.

Results

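The inhibitory interneurons of the cerebellum were examined through 9 genes: Gad1, Gad2, Slc32a1, Slc6a5, Kit, Prkcd, Sorcs3, Grm2 and Lgi2. They were picked by name, for GABA and glycine synthesis and transport and as markers of basket, stellate and Golgi cells, and all 9 had an array row of their own among the 22180 genes measured. Total RNA of mouse cerebellum was hybridised to 12 Affymetrix arrays, with 3 arrays in each of 4 groups. WT_male and WT_female were the wild-type males and females, and KO_male and KO_female were males and females with the genotype Ciz1-/-. Ciz1 encodes a nuclear protein with roles in DNA replication and in holding Xist RNA on the inactive X chromosome. Stated ages conflict too: 10 months in the extraction protocol, and 6 to 10 months in the design text. The labels disagree about the controls, which the source name calls wild type and the protocol Ciz1+/+, while the genotype field reads Ciz1+/-. The labels do not describe how the Ciz1 allele was made, in which strain, or whether the controls were littermates. The protocol counts 6 mice of each genotype, and replicate numbers only name an array.

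Inhibition in the cerebellar cortex comes from a few kinds of local neuron. Basket and stellate cells of the molecular layer release GABA onto Purkinje cells and onto each other, and Golgi cells inhibit granule cells, many of them with glycine as well as GABA. Purkinje cells also make and package GABA, so Gad1, Gad2 and Slc32a1 are not confined to interneurons, and unipolar brush cells, which are excitatory, are a further source of Grm2. In RNA of whole tissue, fewer cells of a type and less RNA per cell cannot be told apart.

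The tissue label was checked against 9 markers of granule and Purkinje cells, among them Gabra6, Cbln1, Calb1 and Pcp4, and each was brighter than at least 80.2% of genes. Ciz1 was between 8.70 and 8.90 in the wild-type arrays and between 6.82 and 7.31 in the knockout arrays (log2 intensity). Its knockout minus wild-type difference was -1.64 (SE 0.07), with a limma adjusted p of 1.42e-06. Some Ciz1 signal remained in every knockout array, and the position of the probes against the deleted or changed sequence is unknown here. The level of choroid plexus markers varied between arrays of every group. Averaged over 9 such genes and centred on all arrays, it was from -0.48 to 0.89 in wild type and from -0.78 to 0.52 in knockout. Depth has no counterpart here, and the number of arrays limits the precision.

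The bases upstream of 5 of the gene starts follow, because Prkcd and Sorcs3 were the pair that varied most closely together across arrays, while Gad1 and Gad2, which serve the same reaction, varied together only weakly. Each window holds the 250 bases before an annotated start in RefSeq's GRCm38.p6 table, printed 5′ to 3′ on the gene's strand. Prkcd has 2 annotated starts, at chr14:30626209-30626458 and chr14:30610311-30610560 (minus strand). The windows of Sorcs3 (chr19:48205775-48206024), Gad1 (chr2:70561879-70562128) and Gad2 (chr2:22622077-22622326) are on the plus strand. Capitals mark matches on either strand to TATAAA (the TATA box), GGGCGG (the GC box) and CAGCTG (a form of the E-box, the site of basic helix-loop-helix factors).
Prkcd, first start: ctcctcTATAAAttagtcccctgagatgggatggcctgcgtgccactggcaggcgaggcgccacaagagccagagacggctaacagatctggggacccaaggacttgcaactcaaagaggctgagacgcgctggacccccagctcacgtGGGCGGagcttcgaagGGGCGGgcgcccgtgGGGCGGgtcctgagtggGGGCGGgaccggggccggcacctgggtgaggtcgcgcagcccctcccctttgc
Prkcd, second start: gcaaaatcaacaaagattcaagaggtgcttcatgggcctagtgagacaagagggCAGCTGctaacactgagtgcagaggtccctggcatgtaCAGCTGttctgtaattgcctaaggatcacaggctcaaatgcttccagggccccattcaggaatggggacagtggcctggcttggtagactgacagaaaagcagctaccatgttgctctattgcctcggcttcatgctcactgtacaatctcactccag
Sorcs3: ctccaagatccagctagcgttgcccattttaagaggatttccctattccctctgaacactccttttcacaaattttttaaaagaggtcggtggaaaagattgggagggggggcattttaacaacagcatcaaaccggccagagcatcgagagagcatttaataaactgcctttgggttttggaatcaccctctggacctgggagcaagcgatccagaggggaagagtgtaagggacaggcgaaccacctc
Gad1: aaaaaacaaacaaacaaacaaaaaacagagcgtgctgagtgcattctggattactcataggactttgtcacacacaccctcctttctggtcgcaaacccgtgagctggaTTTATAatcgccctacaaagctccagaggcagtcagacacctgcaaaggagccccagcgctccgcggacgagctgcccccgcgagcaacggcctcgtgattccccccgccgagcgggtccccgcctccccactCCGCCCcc
Gad2: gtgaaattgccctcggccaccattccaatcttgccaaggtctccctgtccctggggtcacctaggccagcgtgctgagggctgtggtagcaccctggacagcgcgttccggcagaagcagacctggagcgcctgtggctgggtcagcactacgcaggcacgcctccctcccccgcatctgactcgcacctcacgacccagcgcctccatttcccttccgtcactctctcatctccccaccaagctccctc

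The first Prkcd window held 1 TATAAA and 4 GGGCGG, the second held 2 CAGCTG, and the Sorcs3 window held none of the 3 words. The Gad1 window held 1 TATAAA and 1 GGGCGG, and the Gad2 window held none. Of 32851 upstream windows of the same length, 12.4% held TATAAA, 32.7% GGGCGG and 13% CAGCTG on either strand. CG dinucleotides numbered 18 in the first and 1 in the second Prkcd window, 6 in Sorcs3, 17 in Gad1 and 13 in Gad2, where the median window held 6. The 5 windows thus shared no one of these words. These are matches of letters anywhere in a window, whatever their distance to the start, so a TATAAA here need not act as a TATA box. No binding was measured.

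No gene of the 9 passed the test between knockout and wild type. Over both sexes the differences, knockout minus wild type on the log2 scale, ran from -0.09 for Slc6a5 to 0.06 for Sorcs3, with 4 genes higher and 5 lower and a median of -0.005. The median over all 22180 genes was -7e-04, with 10998 higher and 11182 lower. In limma, 0 of the 9 had an adjusted p under 0.05, against a background of 0.0225% of all genes, and 0 of 9 had an unadjusted p under 0.05, against 9.26%. Adjusted p for the 9 ran from 0.633 to 0.992. The 95% intervals of all 9 lay between -0.22 and 0.21, that is between 0.86 and 1.15 times the wild-type level, so larger changes of any of these rows lie outside its interval. For each gene the knockout and wild-type arrays overlapped, where 0.55% of all genes had arrays that did not.

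**Figure D1:**
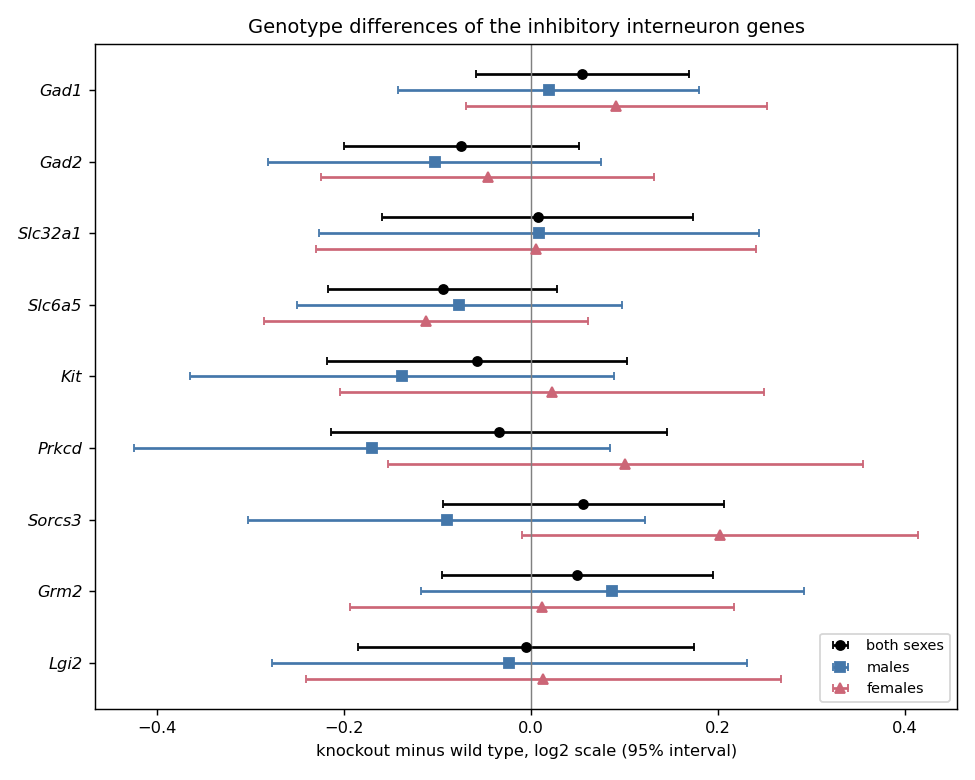
Difference between knockout and wild type for each of the 9 genes on the log2 scale (horizontal axis), over both sexes (circles), in males (squares) and in females (triangles), with 95% intervals from limma. Every interval includes 0, and those over both sexes lie between -0.22 and 0.21.

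Gad1 and Gad2 encode the 2 glutamate decarboxylases that make GABA. Gad1 was at 8.71, 8.58 and 8.68 in WT_male, 8.68, 8.73 and 8.57 in WT_female, 8.65, 8.80 and 8.58 in KO_male and 8.70, 8.74 and 8.82 in KO_female. The KO_female arrays were the highest group on average, but their lowest array lay below the highest WT_female array. The difference was 0.06 over both sexes (SE 0.05; 95% interval -0.06 to 0.17; limma adjusted p = 0.773), where wild type had 8.66 ± 0.07 (SD, n = 6) and knockout 8.72 ± 0.09 (SD, n = 6). It was 0.02 in males and 0.09 in females.

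Gad2 was at 9.55, 9.40 and 9.53 in WT_male, 9.45, 9.34 and 9.52 in WT_female, 9.31, 9.55 and 9.30 in KO_male and 9.47, 9.35 and 9.36 in KO_female. In KO_male 1 array was nearly as high as the brightest wild-type array and the other two were below all 6 wild-type arrays. Its difference was -0.07 (SE 0.06; 95% interval -0.20 to 0.05; limma adjusted p = 0.717), from 9.47 ± 0.08 (SD, n = 6) to 9.39 ± 0.10 (SD, n = 6). Gad2, Gad1 and Slc32a1 lie on chromosome 2, as does Ciz1, in RefSeq's annotation.

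Slc32a1 encodes the vesicular transporter that loads GABA and glycine into synaptic vesicles. It was at 8.41, 8.20 and 8.49 in WT_male, 8.54, 8.27 and 8.42 in WT_female, 8.25, 8.56 and 8.32 in KO_male and 8.28, 8.48 and 8.48 in KO_female. Each group spanned nearly the same range, and the difference was 0.01 (SE 0.08; 95% interval -0.16 to 0.17; limma adjusted p = 0.987). Slc32a1 had a second, dimmer row, at 6.36 to 6.75, which differed by -0.0018 over both sexes (95% interval -0.18 to 0.17). The 2 rows pointed the same way in males (0.01 and 0.08) and opposite ways in females (0.01 and -0.09), with neither past the threshold over both sexes.

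Slc6a5 encodes the plasma membrane glycine transporter of glycinergic terminals, which in the cerebellum include Golgi cells. It was at 9.002, 8.99 and 9.27 in WT_male, 9.11, 9.03 and 9.05 in WT_female, 9.004, 8.93 and 9.10 in KO_male and 8.99, 8.91 and 8.96 in KO_female. The 3 KO_female arrays lay below the 3 WT_female arrays, a separation that 7.41% of all genes had in that direction. In males the groups overlapped. The difference over both sexes, -0.09 (SE 0.06; 95% interval -0.22 to 0.03), did not pass (limma adjusted p = 0.633). It was -0.08 in males and -0.11 in females (adjusted p = 0.968 and 0.736). Without WT_male replicate 3, the brightest array, the difference was -0.05 over both sexes and 0.01 in males.

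Kit, Prkcd and Sorcs3 were taken as markers of molecular layer interneurons, and how far each is confined to them was not tested. Kit encodes a receptor tyrosine kinase whose ligand, the product of Kitl, is made by Purkinje cells. Kit was at 10.33, 10.15 and 10.21 in WT_male, 10.23, 10.19 and 10.19 in WT_female, 9.85, 10.36 and 10.05 in KO_male and 10.24, 10.23 and 10.21 in KO_female. The KO_male arrays held both the dimmest and the brightest value of the 12, with an SD of 0.26, while the SD was 0.02 in KO_female. The difference was -0.06 over both sexes (SE 0.07; 95% interval -0.22 to 0.10; limma adjusted p = 0.848), -0.14 in males and 0.02 in females. Without KO_male replicate 1 the difference over both sexes was 0.0015.

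Prkcd encodes a protein kinase C of the calcium-independent class. Its values were 9.18, 8.95 and 9.0 in WT_male, 9.22, 8.80 and 8.79 in WT_female, 8.80, 8.92 and 8.90 in KO_male and 9.12, 8.88 and 9.12 in KO_female. In males all 3 knockout arrays lay below all 3 wild-type arrays, as 5.64% of all genes did, and in females the arrays overlapped. The difference was -0.17 in males (SE 0.12; 95% interval -0.42 to 0.08; limma adjusted p = 0.945) and 0.10 in females (SE 0.12; 95% interval -0.15 to 0.36; adjusted p = 0.848). Over both sexes it was -0.03 (95% interval -0.21 to 0.15; adjusted p = 0.937).

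Sorcs3 encodes a sorting receptor of the sortilin family. It stood at 8.92, 8.72 and 8.74 in WT_male, 8.76, 8.54 and 8.59 in WT_female, 8.56, 8.82 and 8.74 in KO_male and 8.94, 8.67 and 8.89 in KO_female. Of the 3 KO_female arrays, 2 were above every WT_female array. The difference in females, 0.20 (SE 0.10; 95% interval -0.01 to 0.41), was the largest in size of any of the 9 genes in either sex and did not pass (limma unadjusted p = 0.0596, adjusted p = 0.605). In males it was -0.09 (SE 0.10; 95% interval -0.30 to 0.12). Over both sexes it was 0.06 (SE 0.07; 95% interval -0.09 to 0.21; limma adjusted p = 0.839).

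Grm2 and Lgi2, like Slc6a5, were taken as markers of Golgi cells, and how far each is confined to them was not tested. Grm2 encodes a metabotropic glutamate receptor that lowers cyclic AMP. Its values were 8.35, 8.27 and 8.48 in WT_male, 8.62, 8.35 and 8.24 in WT_female, 8.39, 8.47 and 8.51 in KO_male and 8.47, 8.44 and 8.33 in KO_female. The WT_female arrays held both the highest and the lowest value. The difference was 0.05 (SE 0.07; 95% interval -0.10 to 0.19; limma adjusted p = 0.859).

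Lgi2 encodes a secreted leucine-rich repeat protein of the family that binds ADAM22 and its relatives at synapses. It was at 9.72, 9.60 and 9.77 in WT_male, 9.66, 9.51 and 9.51 in WT_female, 9.71, 9.48 and 9.84 in KO_male and 9.58, 9.34 and 9.79 in KO_female. Knockout arrays spread more widely, with an SD of 0.19 (n = 6) against 0.11 (n = 6) in wild type; this gap in spread was not tested. The difference was -0.005 (SE 0.08; 95% interval -0.18 to 0.17; limma adjusted p = 0.992).

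**Figure D2:**
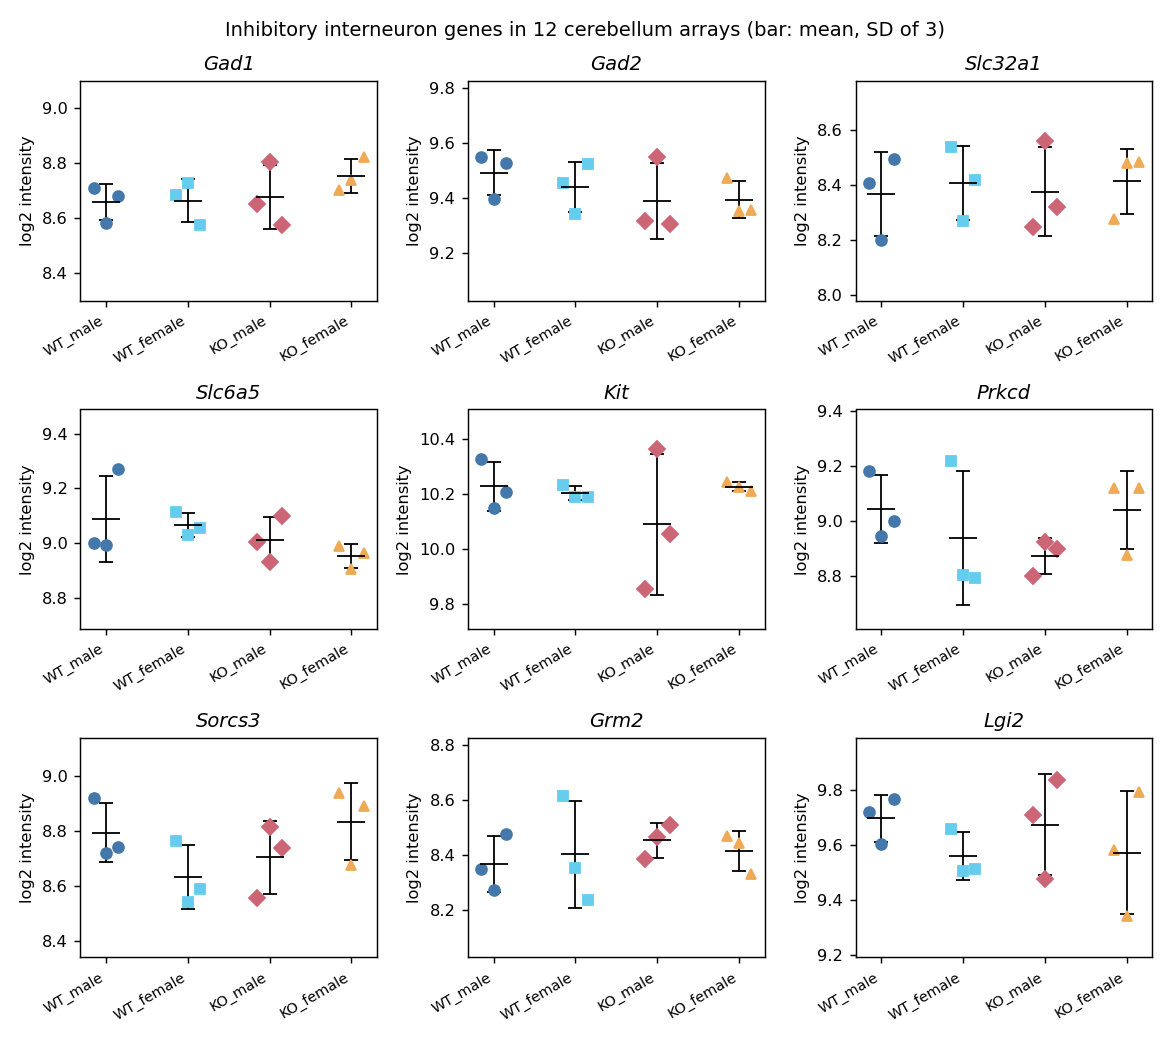
Log2 intensity of each of the 9 genes in the 12 arrays (vertical axis, the same span in each panel), by group, with 1 point per mouse and bars for the mean and SD of 3 arrays. The points of knockout and wild type overlap in every panel, and the Kit panel shows the wide spread of KO_male, from 9.85 to 10.36.

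Within each sex, again, no gene of the 9 passed. In males 3 were higher and 6 lower, with a median of -0.08, and 0 of 9 passed the adjusted threshold (background 0.0225%) or an unadjusted p under 0.05 (background 5.42%) in limma. In females 7 were higher and 2 lower, with a median of 0.01, and 0 of 9 passed either threshold (backgrounds 0.0225% and 8.49%). The medians over all genes were -0.0045 in males, with 10665 genes higher and 11515 lower, and 0.0016 in females, with 11229 higher and 10951 lower. Of the 7 genes higher in females, Slc32a1, Grm2 and Lgi2 differed by 0.0133 or less and changed sign under some alternatives. Intervals were wider within a sex: the outermost bounds were -0.42 and 0.29 in males and -0.29 and 0.41 in females.

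A difference between the sexes in the effect of genotype was not shown. For that difference, females minus males, limma called 0 of 9 at the adjusted threshold (background 0%) and 0 of 9 at an unadjusted p under 0.05 (background 4.82%). Sorcs3, Prkcd and Kit had the 3 widest gaps. Sorcs3 had 0.29 (95% interval -0.01 to 0.59; limma unadjusted p = 0.055, adjusted p = 0.998), Prkcd 0.27 (95% interval -0.09 to 0.63) and Kit 0.16 (95% interval -0.16 to 0.48). The Kit value rested on single arrays, at 0.04 without KO_male replicate 1 and 0.30 without KO_male replicate 2. The other 6 were between -0.08 and 0.07.

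Levels in females and males, averaged over genotype, were close. The largest difference in size was that of Lgi2, at -0.12 (females minus males; 95% interval -0.30 to 0.06; limma adjusted p = 0.734), and the highest was that of Kit, at 0.06 (95% interval -0.10 to 0.22). In limma 0 of 9 passed the adjusted threshold (background 0.0361%) and 0 of 9 had an unadjusted p under 0.05 (background 7.93%). For each of the 9 the arrays of the sexes overlapped, where 0.469% of all genes did not.

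When the 4 group means of a gene were put in order, each step to the next group was smaller than the SD within groups, for all 9 genes. The largest step was 0.11, for Kit, from KO_male to WT_female, beside a within-group SD of 0.14. From the lowest to the highest group mean, the span was above the within-group SD for 6 of the 9, with 0.20 against 0.13 for Sorcs3 and 0.13 against 0.09 for Slc6a5. Neither count was computed over all genes, so whether either is particular to these 9 was not tested. WT_male was the highest group for Gad2, Slc6a5, Kit, Prkcd and Lgi2, KO_female for Gad1, Slc32a1 and Sorcs3, and KO_male for Grm2. The within-group SD was lowest for Gad1, at 0.08, and highest for Prkcd, at 0.16, where the median gene had 0.11. Of the 9, 6 were above that median, which by definition as many genes exceed as fall below. The comparison was not matched for brightness.

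Across the 12 arrays some of the genes varied together, whatever the group. Prkcd and Sorcs3, both taken here as markers of molecular layer interneurons, had a Pearson r of 0.84 (permutation p = 9.8e-04, 0.0353 after adjustment over the 36 pairs) and a Spearman rho of 0.85 (permutation p = 9.2e-04, adjusted 0.0331). WT_male replicate 1, KO_female replicate 1 and KO_female replicate 3 were high in both, while WT_female replicates 2 and 3 and KO_male replicate 1 were low in both. WT_female replicate 1 departed from this, with the highest Prkcd value, 9.22, and Sorcs3 at only 8.76. The r was 0.88 for deviations from the group means. It was 0.93 without the 2 arrays farthest from the median of Prkcd, WT_male replicate 1 and the departing WT_female replicate 1. With 1 array left out it stayed between 0.80 and 0.94. The adjusted p was then between 0.0029 and 0.122, and it was above 0.05 without WT_male replicate 1, 2 or 3, WT_female replicate 2 or 3, KO_male replicate 1 or 3, or KO_female replicate 1. All arrays share 1 normalization, and how much tissue composition contributes to any such pair was not tested.

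Gad2 and Kit came next, with r = 0.69 (permutation p = 0.0028, adjusted 0.0499) and rho = 0.74 (permutation p = 0.0077, adjusted 0.0930). Only r passed, and it passed with 1 array left out only without KO_female replicate 2 or 3, with adjusted p up to 0.314 otherwise. Without the 2 arrays farthest from the median of Gad2, r was 0.60, and within groups it was 0.73. Slc6a5 and Lgi2, both taken here as markers of Golgi cells, had r = 0.54 (permutation p = 0.0652, adjusted 0.445) and rho = 0.48 (permutation p = 0.122, adjusted 0.441). Their r was 0.55 without the 2 arrays farthest from the median of Slc6a5. Grm2, also taken as such a marker, had r = 0.32 with Slc6a5 (permutation p = 0.308, adjusted 0.555), and -0.12 without those 2 arrays. With Lgi2 it had r = 0.15 (permutation p = 0.638, adjusted 0.795).

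The 2 enzymes for the same reaction, Gad1 and Gad2, had r = 0.11 (permutation p = 0.718, adjusted 0.795) and rho = 0.15 (permutation p = 0.634, adjusted 0.788). Their r was 0.33 within groups and 0.50 without the 2 arrays farthest from the median of Gad1. Of the 36 pairs, 28 had an r above 0, with a median of 0.31 and a lowest value of -0.41, for Gad1 and Slc6a5. The share above 0 among pairs of other genes was not computed. Whether this count is particular to interneuron genes was therefore not tested.

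**Figure D3:**
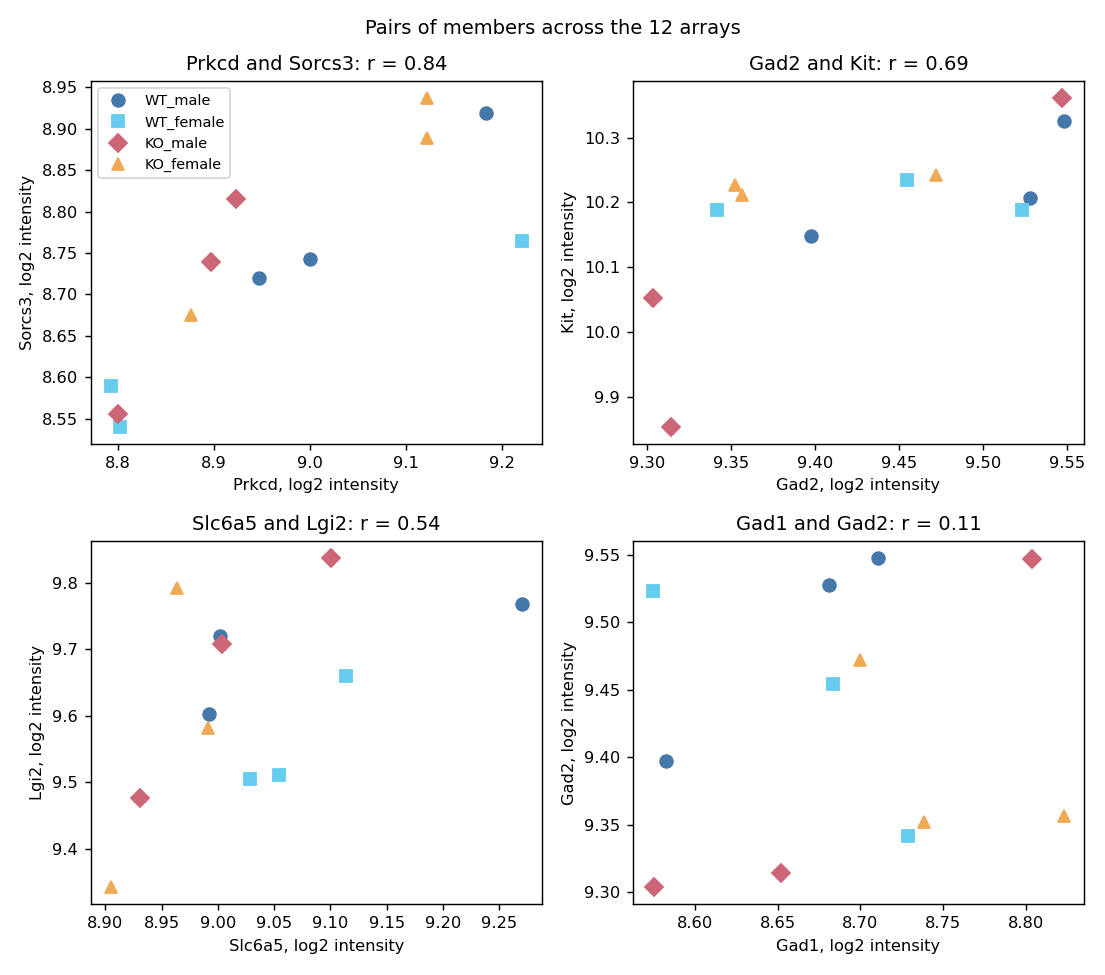
Log2 intensity of 4 pairs of genes against each other, with 1 point per array and the 4 groups marked by shape and colour. Prkcd and Sorcs3 line up across groups (r = 0.84), Gad2 and Kit less closely (r = 0.69), and Gad1 and Gad2 show no such line (r = 0.11).

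For each gene, the most similar pattern over the 12 arrays was sought among 11081 other genes above the median brightness, by Pearson r. The best match was Trnp1 for Gad1 (r = 0.89), Sgtb for Gad2 (0.94), Rcn3 for Slc32a1 (0.88), Ermp1 for Slc6a5 (0.91) and Ntn1 for Kit (0.89). It was Hpca for Prkcd (0.92), Slc24a3 for Sorcs3 (0.93), Hdac10 for Grm2 (0.88) and Psmb7 for Lgi2 (0.95). Each is the highest of many values over 12 points, so its size is a description only. The best matches of Prkcd and of Sorcs3 were above the r of these genes with each other, 0.84.

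Genes around the 9 in the pathway were read over both sexes, from lists chosen with earlier results of these data known. Among 19 genes of GABA and glycine turnover and transport, 0 passed over all genes, 8 were higher and 11 lower, and the median was -0.0048. At an unadjusted p under 0.05 there were 2 of 19, Aldh9a1 and Slc6a11, near the 9.26% of all genes. Aldh9a1, an aldehyde dehydrogenase that can make GABA from an aldehyde, differed by -0.13 (SE 0.05), the astrocytic GABA transporter gene Slc6a11 by -0.26 (SE 0.12) and Dld, a subunit of the glycine cleavage system, by -0.09 (SE 0.04), with limma adjusted p from 0.517 to 0.554.

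Among 14 partners at inhibitory synapses, which are mostly receptor subunits, 0 passed, 10 were lower and 4 higher, and the median was -0.07. Slc12a2, the chloride importer NKCC1, differed by -0.14 (SE 0.05), the glycine receptor subunit gene Glra1 by -0.26 (SE 0.10) and the GABA-A receptor subunit gene Gabrb1 by -0.14 (SE 0.05), with limma adjusted p from 0.421 to 0.495. These 3 of the 14 had an unadjusted p under 0.05, where 9.26% of all genes did.

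Paralogs and partners of the 9 gave 0 of 18 past the threshold, with 9 higher, 9 lower and a median of -0.0042. Sorcs1, a paralog of Sorcs3, differed by -0.20 (SE 0.06; limma adjusted p = 0.365). Its knockout arrays, at 6.83 to 7.16, all lay below its wild-type arrays, at 7.18 to 7.45, a separation in either direction that 0.55% of all genes had. Sort1, which encodes sortilin, differed by -0.10 (SE 0.04) and Grm3, the closest paralog of Grm2, by -0.13 (SE 0.07), with adjusted p of 0.467 and 0.604.

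Other markers of cerebellar interneurons gave 0 of 20 past the threshold, with 10 higher, 10 lower and a median of 8e-04. The neuropeptide gene Npy differed by 0.36 (SE 0.12; limma adjusted p = 0.46), and by 0.23 without KO_male replicate 2. Galntl6 differed by -0.24 (SE 0.09) and the cannabinoid receptor gene Cnr1 by 0.09 (SE 0.04). Transcription factors that specify interneurons gave 0 of 12, with 3 higher and 9 lower and a median of -0.01. Lhx1 differed by -0.09, Tfap2a by 0.10 and Neurog2 by -0.08.

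Other cell types of the tissue were read for the same contrast. Markers of Purkinje cells (8 tested, median 0.03), granule cells (10 tested, 0.01) and unipolar brush cells (4 tested, 0.09) had 0 past the threshold. Ppp1r17 differed by 0.11, Rgs8 by 0.06 and Skor2 by 0.08 for Purkinje cells, Etv1 by 0.15, Gabrd by 0.07 and Cbln1 by -0.05 for granule cells, and Eomes by 0.15, Calb2 by 0.10 and Lmx1a by 0.09 for unipolar brush cells. All 4 unipolar brush cell markers had higher means in knockout. Calb2 was also in the list of other interneuron markers, and how far each of the 4 is confined to unipolar brush cells was not tested. The level of the 4 markers, averaged and centred, was from -0.1163 to 0.0168 in wild-type arrays and from 0.0208 to 0.0706 in knockout arrays. This separation was singled out after the values were seen and was not tested. Mast cell and melanocyte markers, read because those cells also use Kit, had 0 of 10 past the threshold and a median of -0.02, with Tpsb2 at -0.20, Mcpt4 at 0.12 and Dct at -0.08.

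The 11 oligodendrocyte markers all had lower means in knockout, with a median of -0.28. Their level, averaged and centred, was from 0.03 to 0.22 in wild-type arrays and from -0.30 to 0.15 in knockout arrays. Opalin, a myelin protein gene, fell by 0.45 (SE 0.06; limma adjusted p = 0.037) and was the only 1 of the 11 to pass over all genes. At an unadjusted p under 0.05 there were 11 of 11, against 9.26% of all genes. The list was chosen with earlier results of these data known, so this count is a description only. In males the list's median was -0.17 with 0 of 11 at that unadjusted threshold (background 5.42%), and in females -0.36 with 9 of 11 (background 8.49%). Opalin differed by -0.19 in males and -0.72 in females, and its interaction did not pass (limma adjusted p = 0.772). With 1 array left out, Opalin still passed when that array was KO_male replicate 1 or WT_female replicate 1 or 3, and for the other 9 arrays its adjusted p reached up to 0.158. Mal differed by -0.36 and Cldn11 by -0.28. All 9 choroid plexus markers had lower means in knockout as well, with a median of -0.28 and a lowest value of -1.15, for Ttr, named after its value was seen. In that list 0 passed the limma threshold and 2 of 9 had an unadjusted p under 0.05 (background 9.26%), with Slco1a5 at -0.26, Folr1 at -0.36 and Otx2 at -0.28. Bergmann glia and astrocyte markers had a median of -0.09 (10 tested, 0 passing), with Vim at -0.13, Aqp4 at -0.17 and Slc1a2 at -0.10. These 3 of the 10 had a limma unadjusted p under 0.05 (background 9.26%). In males 4 of 10 did, all lower (background 5.42%), and in females 0 of 10 (background 8.49%). Microglia (7 tested) and vascular and meningeal markers (8 tested) had medians of 0.04 and 0.03 with 0 passing, with C1qb at 0.17, P2ry12 at 0.09, Tmem119 at -0.07, Rgs5 at 0.11, Flt1 at 0.07 and Col1a1 at 0.05. The part of these cell types in the values of the 9 genes was not tested beyond a covariate for the choroid plexus level, with which 0 of the 9 passed.

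**Figure D4:**
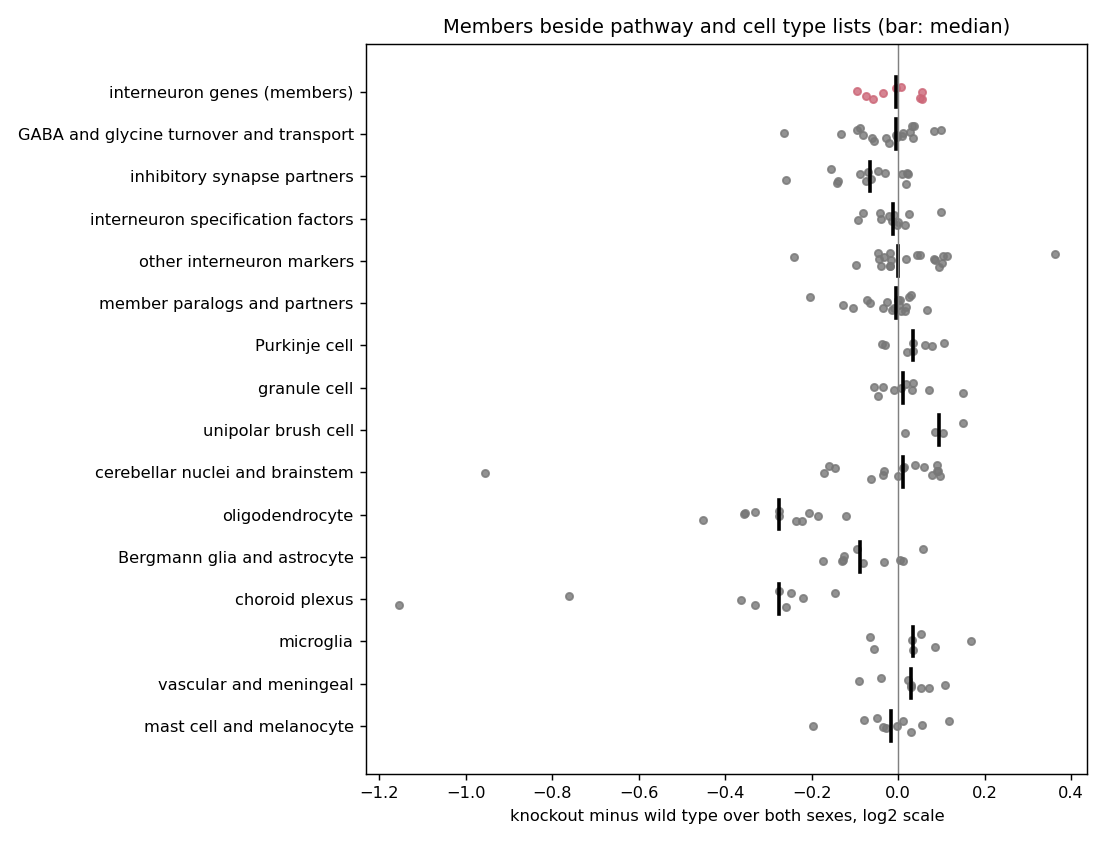
Difference between knockout and wild type over both sexes on the log2 scale (horizontal axis) for each gene of the 9 (top row) and of 15 pathway and cell type lists, with a bar at each list's median. The 9 genes lie between -0.09 and 0.06, while all 11 oligodendrocyte markers lie below 0.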

How the data were processed

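The authors deposited RMA-normalized intensity values, computed over core exons in Expression Console per the labels. The values are on a linear scale (array medians 96.5 to 98.7). The submitters' processing notes also list Transcriptome Analysis Console 3.0. The authors' test and genome build: not given in the sources used here. Log2 of each intensity was taken here, with no offset and no further normalization. Rows with exactly 1 gene symbol in GEO's platform annotation were kept (23521 of 41345 rows; 1814 had several symbols and 16010 none), and the brightest row stood for a gene, which gave 22180 genes. No dim genes were removed. Levels of different genes come from different probes and were not compared, except as brightness ranks in the tissue check and the brightness filters. Such ranks also carry differences between probes.

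Differences were fitted by limma 3.58.1 (R 4.3.3) with a mean for each of the 4 groups, 1 shared spread over 12 arrays, eBayes, two-sided p adjusted by Benjamini-Hochberg over all 22180 genes, threshold 0.05. The fit was checked on simulated data. The design had assumed log2 values. Correlations over arrays used 100000 permutations, two-sided. The 9 genes and the 15 lists (202 entries, 25 without a row) were chosen with earlier results of these data known. From each list the 3 genes with the smallest p over both sexes, and any that passed, are named. Sorcs1's arrays were singled out after its values were seen. Alternatives were an intensity trend, robust moderation, a brightness filter, quantile normalization, an offset of 16, the mean of a gene's rows, array weights, a choroid plexus covariate, an additive design and leaving out each array.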

Additional observations from a re-analysis of the deposited data

How the results depend on the processing

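None of the 9 genes passed the threshold in any of the 5 comparisons under any alternative run. Over 31 differences of these genes and 21 alternatives, 630 values, the lowest limma adjusted p was 0.409 and 35 values changed sign, in 11 of the differences. The largest in size of the 11 were Slc6a5 in males (-0.0766) and Kit over both sexes (-0.0576). Each of them changed sign when 1 particular array was left out. In females Slc32a1 turned to -0.0021 with quantile normalization and -0.0413 with the mean of its rows, and Grm2 (-0.0153) and Lgi2 (-0.0513) turned with the choroid plexus covariate. With 1 array left out, differences over both sexes ranged from -0.0707 to 0.036 for Prkcd, -0.1257 to 0.0015 for Kit, -0.0385 to 0.0413 for Slc32a1 and -0.0598 to 0.0524 for Lgi2. In males they ranged from -0.0443 to 0.0698 for Gad1, -0.0826 to 0.0727 for Slc32a1, -0.1244 to 0.0143 for Slc6a5 and -0.105 to 0.0754 for Lgi2. In females they ranged from -0.0646 to 0.0739 for Slc32a1, -0.0711 to 0.119 for Grm2 and -0.0964 to 0.1281 for Lgi2. The correlation of Gad1 and Gad2 ranged from -0.0794 to 0.294. The cause of these shifts was not tested.

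Counts over all genes moved more. Over both sexes 5 genes passed, against 18 with an intensity trend, 14 above the median brightness, and 3 with the choroid plexus covariate or the additive design. In females 5 passed, against 26, 16 and, with the offset, 8. For the interaction 0 passed, against 2, 2 and 1, and between the sexes 8, against 15 with the trend and 13 above the median brightness. With 1 array left out the counts ranged from 3 to 8 over both sexes, 2 to 4 in males and 3 to 7 in females. Mal passed with the trend (adjusted p = 0.0189), above the median brightness (0.0331) and without WT_male replicate 1 (0.0309). Opalin was lost with the covariate (0.0884) and the additive design (0.253). No paired analysis was possible because the labels give no number that pairs mice across groups. Alternatives for the correlations were added after seeing the data.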

Other observations

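Slc17a6, the vesicular glutamate transporter gene of excitatory neurons in the cerebellar nuclei and brainstem, had the widest genotype difference of the neuronal lists. It was at 7.07, 7.43 and 7.81 in WT_male, 7.55, 7.40 and 7.76 in WT_female, 7.51, 6.71 and 6.17 in KO_male and 5.86, 5.95 and 7.08 in KO_female. Of the 6 knockout arrays, 4 lay below every wild-type array, and the difference was -0.95 (SE 0.25; limma adjusted p = 0.318), which did not pass. In the same list Hoxa5 differed by -0.17 (SE 0.05) and Tph2 by -0.16 (SE 0.06), and the median over 17 genes was 0.01, with 0 past the limma threshold and 3 at an unadjusted p under 0.05, where 9.26% of all genes had one.

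Npy was highest in KO_male replicate 2, at 9.34, against 8.55 to 8.86 in the other knockout arrays and 8.31 to 8.59 in the wild-type arrays. Its difference was 0.36 with that array and 0.23 without it. The same array held the highest Kit and Slc32a1 values of the 12. It was not extreme in interneuron genes alone. Averaged and centred, the Purkinje cell list (0.18) and the microglia list (0.17) were also highest in it. So was the list of GABA and glycine turnover and transport (0.0965), while the granule cell list was lowest (-0.09).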
